A study of Homo sapiens with 4 samples.

Results

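Chromatin accessibility around TERT was described in BCPAP, a thyroid cancer cell line of human origin, with and without the demethylating agent 5-azacytidine. All ATAC-seq peaks overlapping 1230 to 1350 kb of chromosome 5 (hg19) were taken. This window of 120 kb is defined by position and was chosen with earlier results of these data known. It holds TERT, at 1253 to 1295 kb on the minus strand, its promoter window at 1294 to 1297 kb, and the neighbouring gene CLPTM1L on the side of the promoter, toward higher coordinates. Overlapping peaks (1 bp or more) from the 4 lists were joined into regions, 85 here of 373425 on chromosomes 1 to 22 and X. The stretch from 1000 to 1600 kb, with the window left out, served as local reference and held 277 regions.

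TERT encodes the catalytic reverse transcriptase subunit of telomerase, which adds telomeric repeats to chromosome ends. The gene is silent in most differentiated cells, including thyroid follicular cells, and is reactivated in many cancers. In thyroid cancer this often goes with mutations of its CpG-rich promoter, and DNA methylation upstream of the start site has also been linked to its expression. CLPTM1L encodes a membrane protein, and the TERT and CLPTM1L locus is known for common variants associated with the risk of several cancers.

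The study comprised 2 untreated libraries and 2 libraries of cells treated with 5-azacytidine, a nucleoside that is built into DNA and depletes the enzymes that methylate CpG sites. All 4 came from the same line, and the labels name no dose, no duration and no vehicle for the untreated cells. ATAC-seq marks open chromatin by where a transposase can cut and tag the DNA, and reads pile up into peaks at such sites. Replicates are not said to come from separate cultures, so their spread may be technical. An exact permutation test of 2 libraries against 2 cannot give a two-sided p below 0.333.

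The untreated lists (replicates 1 and 2) had 221110 and 223345 peaks, and the treated lists 259572 and 245142. Each value of height below is the summit coverage, the number of reads stacked at the top of a peak, recovered from the authors' fold enrichment. The lowest listed coverage was 4 in each list, so a region without a listed peak may still have reads. Peak height differed between libraries genome-wide: over the 105414 regions in all 4 lists the median coverage was 23 and 18 without treatment and 11 and 16 with it. Scaled coverage is the coverage divided by that median of the library, and both scales are given where they differ. The read number behind each library is unknown. The background coverage the peak caller used was 0.875 to 0.913. The identity of the cells was not checked against thyroid markers, since no gene positions on hg19 were used, and for the same reason exons and introns are not named.

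The reference sequence of the TERT promoter is shown because each list had a peak in the promoter window and because CpG sites are the substrate of the methylation that 5-azacytidine lowers. It comprises the 250 bases before the gene's start in the RefSeq promoter table (GRCh38.p14, chr5:1295069-1295318, minus strand), written 5′ to 3′ in the direction of the gene. Capitals mark matches to the GC box GGGCGG on either strand, here present as its reverse complement, and to the E-box CACGTG.
TERT promoter: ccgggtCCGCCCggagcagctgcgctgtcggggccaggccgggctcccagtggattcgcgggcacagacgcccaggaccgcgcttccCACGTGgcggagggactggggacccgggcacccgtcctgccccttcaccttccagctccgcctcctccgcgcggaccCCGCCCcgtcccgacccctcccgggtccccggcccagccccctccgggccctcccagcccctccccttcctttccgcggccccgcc
This stretch holds 28 CpG sites, against a median of 11 over the 35116 promoters of that length in the table, and 15.9% of promoters have at least as many. Its GC content is 78.8%. The GC box matched 2 times, and 42.6% of promoters hold a match on either strand. The E-box, a palindrome, matched 1 time, against 6.35% of promoters with a match. The ETS core CCGGAA, searched on both strands and found in 14.5% of promoters, had 0 matches. None of these motifs overlapped another. The promoters of the neighbouring transporter genes SLC6A18 and SLC6A19 hold 7 and 17 CpG sites. The sequence is that of the reference genome. The alleles of BCPAP were not analysed here, and the coordinates of this build are not comparable with the hg19 positions of the peaks.

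The TERT promoter had a low peak in each of the 4 libraries. The region from 1294799 to 1295524 had a peak in all 4 lists, with summits of 9 and 8 reads in the untreated and of 6 and 11 reads in the treated libraries, replicate 1 first here and below. The treated libraries were the lowest and the highest, so the groups overlapped. The means were equal, at 8.5 for each group. Exact 95% Poisson intervals treat each summit as a count at a fixed position. They cover counting error only, not the choice of the highest point of a listed peak. They ran from 4.12 to 17.1 and from 3.45 to 15.8 in the untreated libraries. They ran from 2.20 to 13.1 and from 5.49 to 19.7 in the treated libraries, so each interval contained all 4 values.

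Whether the promoter peak differed between the groups depended on the scale. Relative to the library median, its coverage was 0.391 and 0.444 in the untreated and 0.545 and 0.688 in the treated libraries, so both treated libraries lay above both untreated ones, as in 27.2% of all regions in 4 lists and in 47.4% of those with a mean coverage of 10 or less. The median log2 difference of these low regions on that scale was 0.49. The promoter's log2 difference was 0.55 ± 0.19 (SE, n = 2 each), with an exact two-sided permutation p of 0.333, the smallest possible. Without scaling the log2 difference was −0.063 ± 0.45 (SE). The median log2 difference without scaling was −0.56 over all regions in 4 lists and −0.13 over the low regions. Scaling by the mean over these low regions was chosen after the data were seen and gave a log2 difference of 0.08 with overlapping groups.

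The promoter peak was small among the regions in all 4 lists, but not among all listed peaks of the window. Of the 54 regions in all 4 lists in the local reference including the window, 40 had a higher mean coverage than the promoter's 8.5, 13 a lower one and 1 was the promoter itself. The highest of them, from 1469983 to 1471804, averaged 112. Genome-wide, 85.8% of regions in all 4 lists were higher. All listed peaks of the window had a median coverage of 7 and 6 in the untreated and of 6 and 7 in the treated libraries. The promoter's 9 and 8 untreated and 6 and 11 treated reads lay at or above that median in each library. Of each whole list, 62.3% and 60.9% of untreated and 71.8% and 42.5% of treated peaks were at least as high. The authors' −log10 q of the promoter peak was 5.47 and 4.46 without treatment and 2.47 and 7.67 with it.

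The summit lay at 1295275 in untreated replicate 2 and at 1295248 and 1295244 in treated replicates 1 and 2, within 31 bp. In untreated replicate 1 it lay at 1295049, 226 bp from the farthest of the others and on the side of the gene.

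Upstream of that region, the rest of the promoter window held only weak peaks. The region from 1295830 to 1296533 reached 6 in untreated replicate 2 and of 4 and 6 in the treated libraries, with no peak listed in untreated replicate 1. The region from 1296537 to 1297135 had 7 and 6 in the untreated libraries and no listed peak in either treated library. It lies 3 bp from the preceding region and was the only region of the whole window found in both untreated lists alone, which holds for 3.35% of all regions. When peaks within 150 bp were merged, it joined its neighbour and no such region was left. At the gene's edge of the window, the region from 1293591 to 1294090 reached 6 in treated replicate 1 and no peak in the other lists.

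The gene body of TERT had scattered, weak peaks. Between 1253 kb and the promoter window, the untreated libraries had 7 and 6 listed peaks and the treated libraries 16 and 6. Their coverage ran from 5 to 7 and from 4 to 6 in the untreated libraries, and from 4 to 7 and from 5 to 11 in treated replicates 1 and 2. Of the 22 regions there that lay outside the promoter window, 13 were in a single list, 7 of them in treated replicate 1. Treated replicate 1 thus accounted for the excess of peaks in the treated group, while treated replicate 2 did not exceed the untreated libraries.

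A single region of the gene body was found in all 4 lists. It spans 1288606 to 1289419, 6.15 kb into the gene from the promoter region, and had a coverage of 6 and 5 in the untreated and 7 and 11 in the treated libraries. Both treated libraries were higher, by 1 read in the closest pair. That held for 10.2% of regions in all 4 lists with a mean coverage of 10 or less. With scaling the order was the same, as in 47.4% of those low regions. The gene body also held 2 regions found in both treated lists alone, a pattern of 4.21% of all regions and 8.30% of the local reference. They lie from 1256539 to 1257041, with a coverage of 6 and 5, and from 1281151 to 1281743, with 5 and 5. These regions were picked out after their values were seen.

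**Figure D1:**
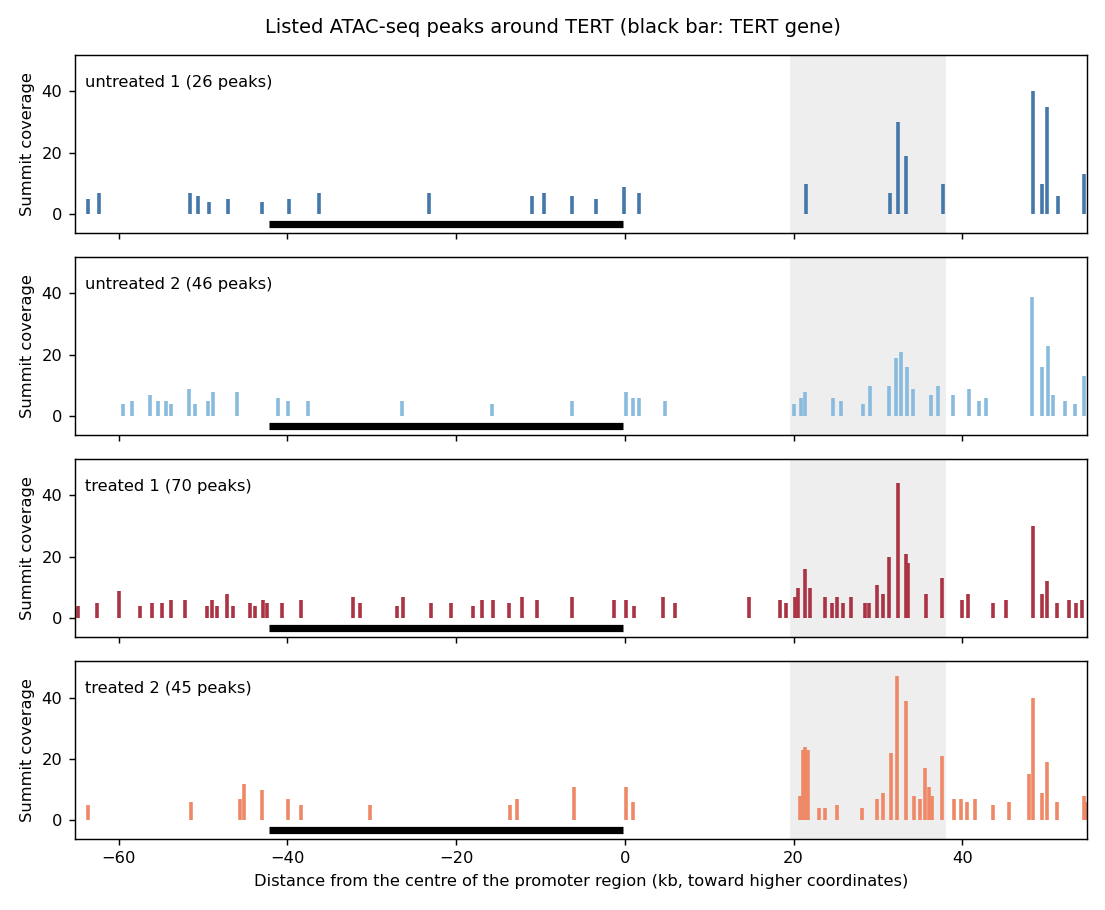
Listed peaks of each library around TERT, with summit coverage on the vertical axis and the distance of the summit from the centre of the promoter region in kb on the horizontal axis. The black bar is TERT and the shading marks 1314913 to 1333120. Peaks over the gene stay at or below a coverage of 11, and the tallest peaks lie beyond the promoter, reaching 44 and 47 in the treated libraries within the shading.

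Beyond the promoter, on the side of CLPTM1L, a stretch of taller peaks was higher in both treated libraries. It comprised 5 neighbouring regions in all 4 lists between 1314913 and 1333120, a span of 18.2 kb whose nearest region is centred 21.0 kb from the promoter region. Regions found in fewer lists lie between them, and not all of those were higher with treatment. Each of the 5 had a higher coverage in both treated than in both untreated libraries, which held for 4.39% of all regions in 4 lists. The stretch was picked out after the values were seen, so its values are a description and no test was made of it.

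The first region of the stretch, from 1314913 to 1317337, had a coverage of 10 and 8 in the untreated and of 16 and 24 in the treated libraries. It was also the widest, with 1 and 3 listed summits in the untreated and 4 in each treated library. The geometric mean was 2.19-fold higher in the treated group (log2 difference 1.13 ± 0.33, SE, n = 2 each). The second, from 1326167 to 1326927, had 7 and 10 in the untreated and 20 and 22 in the treated libraries, with no overlap between the groups. Its difference was 2.51-fold (log2 1.33 ± 0.27), the largest of the 12 regions in all 4 lists without scaling.

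The tallest region of the stretch, from 1327033 to 1328160, had a coverage of 30 and 21 in the untreated and of 44 and 47 in the treated libraries. The treated values lay close together, and the fold was 1.81 (log2 0.86 ± 0.26). Its neighbour, from 1328195 to 1328996, had 19 and 16 in the untreated and 21 and 39 in the treated libraries. Here treated replicate 1 exceeded untreated replicate 1 by 2 reads, and the 1.64-fold difference (log2 0.71 ± 0.46) came mostly from treated replicate 2. The fifth region, from 1332061 to 1333120, had 10 and 10 in the untreated and 13 and 21 in the treated libraries, a fold of 1.65 (log2 0.72 ± 0.35).

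Summed over these 5 regions, the coverage was 76 and 65 in the untreated and 114 and 153 in the treated libraries. All 5 were also higher in both treated libraries on the scaled values, where the folds ran from 2.52 to 3.84. This order was fixed by the choice of the regions, since both treated library medians lie below both untreated ones. The summits of the tallest region were at 1327497, 1327489 and 1327474 in untreated replicate 1 and treated replicates 1 and 2, and at 1327911 in untreated replicate 2, which had 2 summits there.

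The regions beyond this stretch had no such order without scaling. From 1342774 to 1350063, 5 further regions were in all 4 lists, and none was higher in both treated libraries without scaling. The tallest, from 1342774 to 1343783, had a coverage of 40 and 39 in the untreated and of 30 and 40 in the treated libraries, so the groups overlapped. With scaling it was higher in both treated libraries, by a log2 difference of 0.43 ± 0.17 (SE, n = 2 each). Its summits lay within 52 bp in the 4 libraries. The region from 1344902 to 1345546 had 35 and 23 in the untreated and 12 and 19 in the treated libraries, lower in both treated ones by a log2 difference of −0.91 ± 0.45 (SE, n = 2 each). It stayed lower after scaling, with a log2 difference of −0.29 ± 0.14.

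The other 3 of these regions were weaker. The region from 1344342 to 1344883 had 10 and 16 against 8 and 9, lower in both treated libraries without scaling and overlapping with it. From 1349090 to 1350063 the coverage was 13 and 13 against 6 and 8, lower on both scales. The region from 1345620 to 1346785 had 6 and 7 against 5 and 6, and the groups touched at 6.

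**Figure D2:**
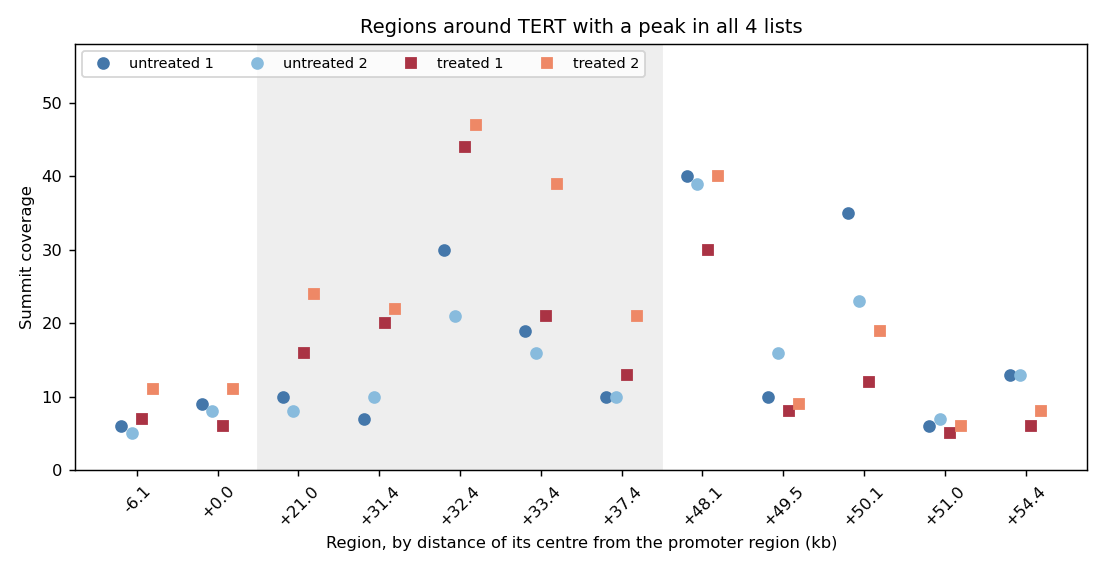
Summit coverage in each library (circles untreated, squares treated) of the 12 regions around TERT with a peak in all 4 lists, ordered by the distance of their centre from the promoter region in kb. In the 5 shaded regions both squares lie above both circles, whereas the promoter region, at 0, shows squares below and above the circles.

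Ratios between regions of the same library need no single scale factor between libraries. They do not remove differences between libraries that vary with peak height. The unscaled median log2 difference was −0.56 over all regions in 4 lists and −0.13 over those with a mean coverage of 10 or less. The tallest region of the stretch had 0.75 and 0.539 times the coverage of the region at 1342774 without treatment, and 1.47 and 1.18 times with it. The order of these tallest peaks of the window was thus inverted in both treated libraries. The summed coverage of the 5 regions over that of the 5 regions beyond them was 0.731 and 0.663 in the untreated and 1.87 and 1.87 in the treated libraries. The 5 regions of the stretch were picked for their higher treated values, so the direction of these ratios is not independent of that choice. The same ratio for the promoter region, against the region at 1342774, was 0.225 and 0.205 in the untreated and 0.2 and 0.275 in the treated libraries, where the groups overlapped.

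Over all 12 regions of the window in all 4 lists, 6 were higher in both treated libraries without scaling, 3 were lower and 3 overlapped. Among all regions in 4 lists, 4.39% were higher and 47.6% were lower in that sense. The median log2 difference was 0.31 in the window, −0.41 in the 42 such regions of the local reference and −0.56 genome-wide. In the local reference 3 of the 42 were higher and 18 lower. With scaling, 8 of the 12 were higher and 2 lower, against 27.2% and 22.2% of all regions, and 16 and 9 of the 42 in the local reference. These shares vary with peak height. For regions in all 4 lists with a mean coverage of 10 or less, they were 47.4% higher and 3.71% lower with scaling. Without scaling they were 10.2% and 20.4%. Some of the 12 regions are that low and others are taller. The 2 regions added by scaling were the promoter region and the region at 1342774.

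Runs of at least 5 neighbouring regions in all 4 lists that were each higher in both treated libraries without scaling occurred 9 times genome-wide, the one beyond the TERT promoter included, and the longest had 7 regions. Runs of any length with higher treated coverage numbered 4166. Runs of at least 5 regions with lower treated coverage numbered 1812.

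**Figure D3:**
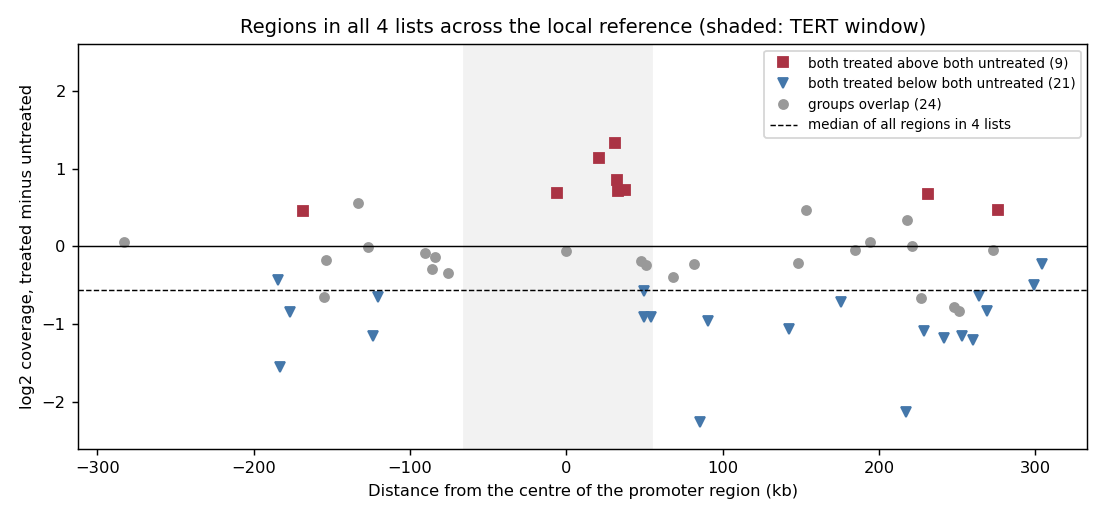
Difference in log2 summit coverage, treated minus untreated, without scaling, for the 54 regions in all 4 lists between 1000 and 1600 kb, against the distance from the promoter region in kb. Of the 9 regions with both treated libraries above both untreated ones, 6 lie in the shaded TERT window, and most other regions scatter around the dashed genome-wide median of −0.56.

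The mean number of listed peaks was higher in the treated group, in the window and in its neighbourhood. Untreated libraries had 26 and 46 peaks in the window and treated libraries 70 and 45, with means of 36 ± 14.1 and 57.5 ± 17.7 (SD, n = 2 each). The groups overlapped, and the exact two-sided permutation p was 0.667. In the local reference there were 99 and 145 untreated and 196 and 157 treated peaks, without overlap (exact permutation p = 0.333). Among peaks with a −log10 q of 5 or more, the local means were 41 untreated and 42 treated (exact permutation p = 1.0), and 11 and 15 in the window. With equal numbers of peaks per list the local means were 121 and 148 (exact permutation p = 0.667). The ratio of means was 1.60 in the window, 1.45 in the local reference and 1.14 over the whole lists. The difference between these ratios was not tested.

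The window's surplus included both weak peaks, most numerous in treated replicate 1, and taller ones. Peaks with a coverage of 6 or less came to 10 and 25 without and to 43 and 15 with treatment. Peaks with a coverage of at least 10 came to 8 and 10 without and to 11 and 16 with treatment, where both treated libraries lay higher. The stretch described above, picked for its higher treated values, held 4 and 6 of them without and 9 and 9 with treatment. Outside it the groups overlapped in this count. By place, the part beyond the promoter window held 11 and 27 untreated against 35 and 32 treated peaks, without overlap. Below the gene, from 1230 to 1253 kb, there were 7 and 11 against 17 and 5, and treated replicate 2 had the fewest.

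By presence, 8 of the 85 regions (9.41%) were held by both treated lists and by no untreated list, against 4.21% of all regions. In the local reference the share was 8.30%, and the shares were not compared by a test. Of these 8 regions, 6 lay beyond the promoter window. Their coverage was between 4 and 11. The highest, from 1324758 to 1325304, had 11 and 7 in treated replicates 1 and 2. It lies inside the stretch described above, between its first and second regions. So do the regions of this class from 1318587 to 1319101, with 7 and 4, and from 1325487 to 1326021, with 8 and 9. Other regions inside the stretch went the other way. That from 1323908 to 1324428 had 10 in untreated replicate 2 and 5 in treated replicate 1. That from 1329027 to 1329679 had 9 in untreated replicate 2 and 8 in treated replicate 2. Neither had a peak in the remaining lists. For 5 of the 8 regions, the running peak numbers of an untreated list had a gap between the peaks on either side, where a peak could have been dropped after calling. The other 3 had no such gap. At a −log10 q of at least 5 no region was left in this class.

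**Figure D4:**
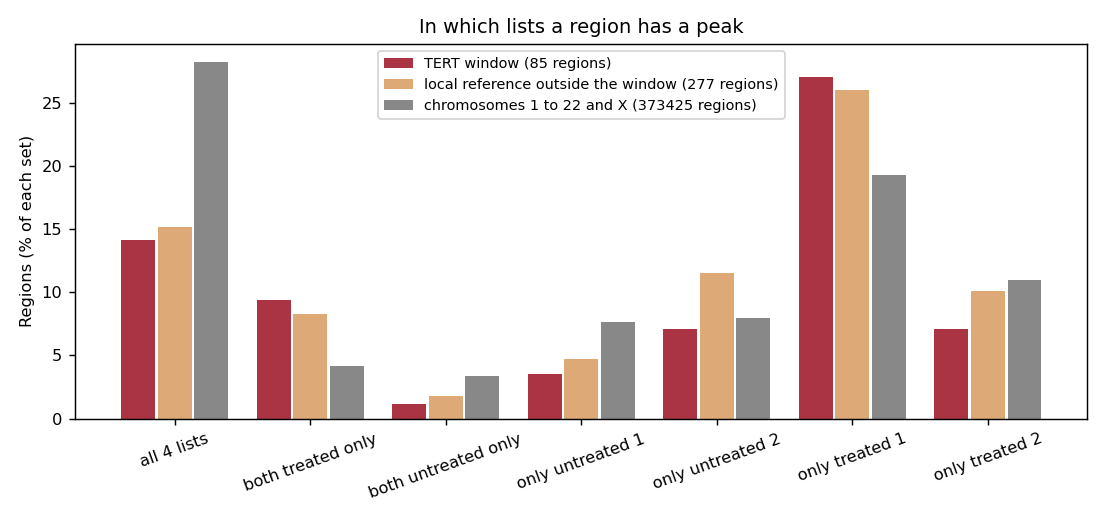
Share of regions, in percent, by the lists that hold a peak, for the TERT window, the local reference outside it and chromosomes 1 to 22 and X. Regions in both treated lists alone make up 9.41%, 8.30% and 4.21%, and regions in treated replicate 1 alone 27.1%, 26.0% and 19.3%.

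Of the remaining regions of the window, 9 were in 3 lists and 17 in 1 untreated and 1 treated list. Another 38 were in 1 list, of which 23 belonged to treated replicate 1, 6 each to untreated replicate 2 and treated replicate 2, and 3 to untreated replicate 1. Regions found in all 4 lists made up 14.1% in the window and 15.2% in the local reference, against 28.2% genome-wide.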

How the data were processed

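The files were 1 narrowPeak list per library. Per the submitters' processing notes, Trimmomatic, Bowtie2, Picard and MACS2 were used with hg19. The sources used here give no versions, settings or shift of read ends. The authors deposited intervals of 500 bp, a score scaled to a fixed total per list (not used further), the fold enrichment ratio and −log10 p and q values of each peak. Every fold value of a list divided by 1 common step gave a whole number (100% of values, relative tolerance 0.001), and coverage is that number minus 1. Positions are 1-based. Regions are peaks sharing at least 1 bp, and a region's coverage is that of its highest peak. Scaling used the library median over regions in all 4 lists. Single values were compared by exact permutation over the 6 assignments of libraries. Single regions other than the promoter were not tested, since 2 against 2 cannot give an exact p below 0.333.

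Named regions were those touching the promoter window plus the 10 with the highest mean coverage among regions in all 4 lists, in both treated lists alone or in both untreated lists alone. Others named were chosen after their values were seen. The window, comparisons and lists were chosen with earlier results of these data known. The list of other telomerase genes was not analysed here for want of hg19 positions. Merging was tested on simulated data. Scripts ran in Python 3.11.15 with pandas 2.3.3, numpy 2.4.6, matplotlib 3.10.9 and scipy 1.17.1.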

Additional observations from a re-analysis of the deposited data

How the results depend on the processing

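The comparison of the promoter peak depended on the scale. Its log2 difference of 0.55 turned to −0.063 without scaling and to −0.036 with the fold enrichment as deposited, and was 0.30 with the local median. Leaving out each library gave 0.39 to 0.72. Leaving out a library kept the direction of the peak counts, with a log2 ratio of 0.32 to 1.15 in the window (0.68 in all libraries) and of 0.28 to 0.83 in the local reference (0.53). At a −log10 q of 5 or more the ratios were 0.45 and 0.035, and with equal numbers of peaks per list 0.44 and 0.29. With each library left out, all 5 regions of the stretch beyond the promoter were higher in the treated libraries that remained. That was fixed in advance, since they were picked for treated values above both untreated ones. The number of regions in all 4 lists that were higher in treated cells on the scaled values was 8 of 12, and 8 to 10 without a library. It was 7 with the local median, and 6 without scaling, with the fold enrichment as deposited or with the scale by low regions. With peaks within 150 bp merged it was 7 of 10, and with summits and 100 bp on either side 6 of 8. The number that were lower was 2, and 2 to 3 without a library. It was 3 without scaling or with the fold enrichment as deposited. It was 1 with the local median and 1 with summits and 100 bp on either side. Leaving out a library cannot reduce either count, since it removes a condition. The 8 regions in both treated lists alone became 0 when a −log10 q of 5 was required, 5 with equal numbers of peaks per list, 3 without regions lacking a peak number, and 9 to 31 without a library, which removes a condition by construction. The 1 region in both untreated lists alone became 0 with a merging distance of 150 bp and 2 to 7 without a library. Nothing in the labels ties libraries of equal replicate number together, and deviations of same-numbered libraries had a correlation of −0.05 over regions. With the replicate block the promoter difference was 0.55 (exact sign-flip p = 0.5, the smallest possible) and the log2 ratios of peak counts 0.70 and 0.55. The block cannot change the promoter difference, since pairing leaves the difference of means as it is. It cannot change the counts of regions either, since they do not use the pairing. The scale by low regions, the stretch beyond the promoter and the missing peak numbers were chosen after seeing the data. Counting error limits every region with a coverage near the lowest listed value.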
